A study of Mus musculus with 9 samples.

Results

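Fatty acid oxidation was followed through 34 listed genes for fatty acid activation, mitochondrial and peroxisomal beta-oxidation and ketone body formation. The members were taken by name from the list, and each was read from its brightest probe set among those assigned to a single gene symbol. Of the 34, 32 were measured, out of 19938 genes on the array. Acsl1 and Acsl3 were not analysed here. Every value below is a log2 expression level, or a difference between log2 levels, from liver RNA.

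The 9 livers came from 3 groups of 3 mice, with 1 array per animal. Wild-type C57BL/6J mice were the controls. Clock mutants carried Clock-D19, an allele in which the CLOCK protein pairs with its partner but activates transcription poorly. Clock rescue mice carried the same allele and were given 35 µg of a plasmid expressing wild-type Clock (vector pLIVE) through a hydrodynamic tail-vein injection at week 10. The strain background of the mutants is not spelled out in the labels, and no control injection of the other groups is described there. All 3 groups ate a diet with 45% fat for 5 weeks from 10 weeks of age and were killed at zeitgeber hour 10, in the light phase. The comparisons address how the oxidation genes differ in mutant liver at this hour and what their levels are once Clock is supplied.

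Liver burns fatty acids in repeated rounds that each remove an acetyl-CoA unit. Acyl-CoA synthetases activate the acid, the carnitine shuttle carries long chains into mitochondria, and each round then runs through an acyl-CoA dehydrogenase, a hydratase, a hydroxyacyl-CoA dehydrogenase and a thiolase, with electrons leaving through the electron transfer flavoprotein. Peroxisomes run a parallel pathway for very long and branched chains, and much of the acetyl-CoA becomes ketone bodies when fat is the main fuel. Many of these genes are targets of the nuclear receptor PPARA, whose activity in liver varies with feeding and with time of day.

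In mutant against wild-type liver, 6 of the 32 members rose, 4 fell and 22 did not pass the test. The test was limma with all 9 arrays in the fit, Benjamini-Hochberg adjustment over the 19938 genes and a threshold of adjusted p under 0.05. Etfb and Hadh, of electron transfer and of the hydroxyacyl-CoA dehydrogenase step, rose most, by 0.88 ± 0.19 and 0.77 ± 0.17. Acaa1b, Acaa1a, Decr2 and Ech1 were the other risers, and Hadhb, Decr1, Acadsb and Vnn1 fell. The called share of the members was 31.2%, where 15.4% of all genes were called. Among the brighter genes, with the dimmest 40% left out, it was again 10 of 32 members against 28.2%, close to the background, and all 32 measured members lie among those brighter genes. Members rose in 18.8% of cases and fell in 12.5%, against 6.37% and 9.02% of all genes and 11.9% and 16.3% of the brighter genes. The share that fell was thus above that of all genes and below that of the brighter ones. Differences are given with the SE of the fit, and the p-values set each difference against that SE. The SE draws on the spread between these animals for that gene and on the spread over all genes. The number of animals limits the precision.

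The balance of rises and falls depended on the scaling of the arrays. With quantile normalization repeated, 9 members rose and 0 fell. After median centring of the arrays 3 rose and 4 fell, and with the trend on gene span removed 3 rose and 4 fell. Over all genes, 1270 rose and 1798 fell as deposited, and 1283 and 1684 with quantile normalization repeated. After median centring 610 of all genes rose and 2272 fell, and with the span trend removed 805 and 1831. Etfb, Hadh and Acaa1b rose under each of these scalings. Acadsb, Decr1, Hadhb and Vnn1 fell under the deposited scale, under median centring and with the span trend removed, but did not pass when quantile normalization was repeated. The median difference was 0.10 over the members and 0.07 over all genes. Of the 32 members 19 were above 0, as were 12381 of all 19938 genes.

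**Figure D1:**
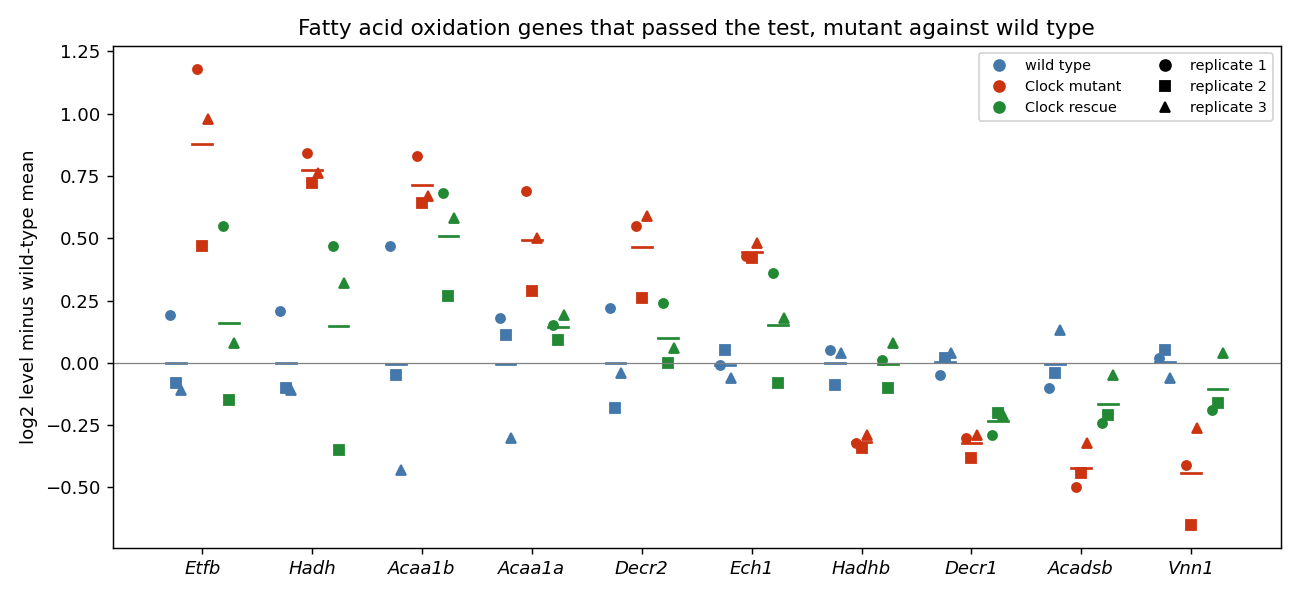
Log2 level minus the wild-type mean of the same gene (y axis) for the 10 members called in mutant against wild type (x axis). Colours give the 3 groups, marker shapes the replicate numbers and short lines the group means; for each gene the 3 mutant points lie wholly above or wholly below the 3 wild-type points, with Etfb at a mean of 0.88 and Vnn1 at -0.44 in mutants.

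Clock itself read 9.97, 9.24 and 9.30 in wild type, 10.88, 9.89 and 10.55 in mutants and 10.33, 9.41 and 9.62 in rescue livers. It was higher in mutants by 0.94 ± 0.26 (limma adjusted p = 0.0266). This did not pass without wild-type replicate 2 (0.81, adjusted p = 0.0864), wild-type replicate 3 (0.83, adjusted p = 0.103), mutant replicate 1 (0.72, adjusted p = 0.108) or mutant replicate 3 (0.88, adjusted p = 0.0715), or with a trended and robust prior (adjusted p = 0.139). From mutants to rescue livers Clock differed by -0.66, which did not pass (limma adjusted p = 0.168). That difference passed with the replicate block (adjusted p = 0.0158) and with array weights (-0.82, adjusted p = 0.0454). The probe set spans the whole gene, so it cannot tell the mutant transcript from the normal one and does not check the labels. The mean level of 14 hepatocyte markers ran from 11.61 to 11.81 in wild type, 11.86 to 11.88 in mutants and 11.58 to 11.86 in rescue livers, and 2 of the 14 rose in mutants, Asgr1 by 0.76 ± 0.14 and Hpd by 0.42 ± 0.11. Kupffer cell and macrophage markers ran from 7.01 to 7.44, 6.54 to 6.63 and 6.57 to 6.83 in the same order, with 11 of 19 lower in mutants; Vsig4 fell by 2.14 and Cd163 by 0.94. Endothelial markers ran from 7.62 to 7.75, 7.20 to 7.25 and 7.32 to 7.61, with 11 of 21 lower in mutants, Fcgr2b by 0.84 and Kdr by 0.86. Stellate cell markers ran from 7.16 to 7.29, 7.01 to 7.13 and 7.20 to 7.24, with 1 of 18 higher and 4 lower, among them Rgs5 by 0.86 and Lrat by 0.81. Of 13 lymphocyte markers 1 was lower, Cd3g by 0.66; of 8 bile duct markers Pkhd1 was higher by 0.35 and Tspan8 lower by 0.52. The calls of Hpd, Pkhd1 and Tspan8 held in 13, 13 and 11 of the alternatives. None of the 12 neutrophil, 2 red cell and 7 adipocyte markers passed in mutants against wild type, with Cxcr2 at -0.41, Alas2 at 0.29 and Plin4 at 0.25. The share called lower was 57.9% for Kupffer cell, 52.4% for endothelial, 22.2% for stellate cell and 7.69% for lymphocyte markers. It was 9.02% over all genes and 16.3% over the brighter ones. Of the hepatocyte markers 14.3% were called higher, against 6.37% of all genes and 11.9% of the brighter ones. In whole liver, fewer cells of a type and less RNA per cell cannot be told apart, and the part of these marker differences in the results on oxidation genes was not tested.

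Activation and the carnitine shuttle held 6 measured members, of which none passed in mutants against wild type (smallest adjusted p = 0.171). Of all genes 15.4% passed, and of the brighter genes 28.2%. Acsl4, an acyl-CoA synthetase with a preference for arachidonic acid, read 9.58, 9.53 and 9.80 in wild type, 8.38, 9.70 and 9.36 in mutants and 9.87, 9.65 and 9.86 in rescue livers. A single mutant liver, replicate 1, lay far below the rest, and the groups overlap. Its difference was -0.49 with a 95% interval of -0.99 to 0.01. Without mutant replicate 1 the difference was -0.11 (adjusted p = 0.644), without mutant replicate 2 it passed (-0.77, adjusted p = 0.0361), and without replicate 2 of every group it was -0.82 (adjusted p = 0.0605). Acsl5, a synthetase found at mitochondria and the endoplasmic reticulum, differed by 0.12 (95% interval -0.10 to 0.34).

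Cpt1a, the outer-membrane carnitine palmitoyltransferase that sets the rate of entry into mitochondria, read 10.35, 10.32 and 10.34 in wild type, 10.41, 10.17 and 10.38 in mutants and 10.11, 9.73 and 10.43 in rescue livers. The wild-type and mutant values overlapped and the rescue values were widely spread. Its difference in mutants was -0.02, with a 95% interval of -0.33 to 0.29. Cpt2, the inner-membrane partner, differed by 0.20 (-0.03 to 0.44), and Crat, which makes short-chain acylcarnitines, by -0.02 (-0.27 to 0.22). Crot, the peroxisomal carnitine octanoyltransferase, stood apart from these in the rescue livers and is described with that comparison.

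Of the 5 acyl-CoA dehydrogenases, which catalyse the opening step, Acadsb fell and the other 4 did not pass. Acadsb, which acts on short branched chains including those from isoleucine, read 9.06, 9.12 and 9.29 in wild type, 8.66, 8.72 and 8.84 in mutants and 8.92, 8.95 and 9.11 in rescue livers. Every mutant value lay below every wild-type and every rescue value. It fell by 0.42 ± 0.11 (adjusted p = 0.0171). It no longer passed without wild-type replicate 3 (-0.35, adjusted p = 0.082), without mutant replicate 1 (-0.38, adjusted p = 0.0668), without replicate 2 of every group (-0.42, adjusted p = 0.0751), or with quantile normalization repeated (-0.30, adjusted p = 0.0691).

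The 4 enzymes named for straight chains did not pass. Acadm, for medium chains, read 10.21, 10.09 and 10.09 in wild type and 10.57, 10.22 and 10.46 in mutants, a difference of 0.29 (95% interval 0.05 to 0.54, adjusted p = 0.101). It passed with quantile normalization repeated (0.39, adjusted p = 0.02), with array weights (0.33, adjusted p = 0.0423) and without mutant replicate 2 (0.39, adjusted p = 0.043). Acadvl, for very long chains, differed by 0.25 (-0.03 to 0.52) and Acads, for short chains, by 0.23 (0.02 to 0.44). Acadl, for long chains, differed by -0.12 (-0.34 to 0.09).

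Electrons from these dehydrogenases pass to the electron transfer flavoprotein, a dimer of the Etfa and Etfb products, and from there through Etfdh to ubiquinone. Etfb read 8.39, 8.12 and 8.09 in wild type, 9.38, 8.67 and 9.18 in mutants and 8.75, 8.05 and 8.28 in rescue livers. All mutant livers lay above all wild-type livers, while mutant replicate 2 lay just under rescue replicate 1. The rise of 0.88 ± 0.19 (adjusted p = 0.00603), a fold of 1.84, passed in 19 of 19 alternatives, with values from 0.73 to 1.08.

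The other 2 genes of that chain did not pass (33.3% called, against 15.4% of all and 28.2% of the brighter genes). Etfa, which encodes the partner subunit, read 11.47, 11.55 and 11.37 in wild type and 11.43, 11.58 and 11.48 in mutants, a difference of 0.03 with a 95% interval of -0.18 to 0.25. Etfdh differed by -0.04 (-0.25 to 0.16). The difference between Etfb and Etfa within an array shifted by 0.84 between wild-type and mutant livers, without overlap (exact permutation test, two-sided, p = 0.1, adjusted p = 0.171). That pair was picked after its values were known, and the test cannot give a p below 0.1.

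The later steps of the mitochondrial round are shared between the trifunctional protein, whose alpha subunit comes from Hadha and beta subunit from Hadhb, and the soluble enzymes Echs1, Hadh and Acaa2. Hadha and Hadhb lie head to head on chromosome 5, with starts 273 bp apart, so the bases before one start also precede the other. Hadh stands alone on chromosome 3. These promoters are shown because Hadhb, which fell, shares its upstream bases with Hadha, which did not pass, while Hadh rose. Sequences are from RefSeq (GRCm38.p6), 5′ to 3′, and capitals mark GC boxes (GGGCGG or its complement CCGCCC).
Hadha and Hadhb shared, chr5:30155003-30155230, plus strand: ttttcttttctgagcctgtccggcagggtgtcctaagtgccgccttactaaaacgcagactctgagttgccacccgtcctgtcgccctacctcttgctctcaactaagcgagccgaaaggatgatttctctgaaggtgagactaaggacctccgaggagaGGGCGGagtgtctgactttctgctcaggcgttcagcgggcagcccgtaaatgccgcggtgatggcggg
Hadh, chr3:131272102-131272351, minus strand: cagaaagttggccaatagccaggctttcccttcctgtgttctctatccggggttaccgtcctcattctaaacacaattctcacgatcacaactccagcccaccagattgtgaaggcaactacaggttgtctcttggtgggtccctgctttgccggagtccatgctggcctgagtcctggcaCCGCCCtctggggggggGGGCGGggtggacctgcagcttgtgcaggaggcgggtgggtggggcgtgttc
The 228 bases that the windows of Hadha and Hadhb share hold 1 GC box, and the 250 bases before Hadh hold 2.

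Hadh, the soluble dehydrogenase for medium and short chains, read 9.83, 9.52 and 9.51 in wild type, 10.46, 10.34 and 10.38 in mutants and 10.09, 9.27 and 9.94 in rescue livers. The mutant livers were tightly grouped above both other groups, and rescue replicate 2 was the lowest of all 9. The rise of 0.77 ± 0.17 (adjusted p = 0.00743), a fold of 1.71, passed in 19 of 19 alternatives, with values from 0.70 to 0.88.

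Hadhb, which carries the long-chain thiolase activity, read 10.68, 10.54 and 10.67 in wild type, 10.31, 10.29 and 10.34 in mutants and 10.64, 10.53 and 10.71 in rescue livers. The mutants lay below both other groups without overlap. It fell by 0.32 ± 0.10 (adjusted p = 0.0424), a call that held in 9 of 19 alternatives. It did not hold when any 1 of the 6 wild-type and mutant arrays was left out (values from -0.36 to -0.29, adjusted p from 0.0513 to 0.124), without rescue replicate 3 (adjusted p = 0.0545), without replicate 2 of every group (-0.35, adjusted p = 0.0776), with the 6 arrays compared (adjusted p = 0.0541), or with quantile normalization repeated (-0.23, adjusted p = 0.0964). A further probe set of the gene gave -0.35, and RefSeq lists a pseudogene, Hadhb-ps, so the share of the signal from each copy is uncertain.

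Hadha, with the long-chain hydratase and dehydrogenase activities, read 10.97, 10.88 and 10.95 in wild type, 11.06, 11.08 and 11.11 in mutants and 11.05, 10.86 and 10.96 in rescue livers. Its mutant values were the highest of the 9, but the difference of 0.15 did not pass (95% interval -0.06 to 0.36, adjusted p = 0.317). Hadhb minus Hadha, taken within each array, was -0.29, -0.34 and -0.28 in wild type, -0.75, -0.79 and -0.77 in mutants and -0.41, -0.34 and -0.24 in rescue livers. This within-array difference therefore shifted by -0.47 in mutants and by 0.44 from mutants to rescue livers, with no overlap in either case. The exact two-sided permutation p was 0.1 for each, which is the smallest that 3 against 3 can give (adjusted p = 0.171 over 12 such tests). The test therefore could not pass at 0.05, and the pair was picked after its values were known.

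Echs1, the short-chain hydratase, read 8.80, 8.85 and 8.72 in wild type and 9.19, 9.03 and 9.03 in mutants. These values did not overlap, yet the difference of 0.30 (95% interval 0.01 to 0.58) did not pass, with adjusted p = 0.148. It passed with quantile normalization repeated (0.41, adjusted p = 0.0296). Acaa2, the mitochondrial thiolase for medium chains, differed by 0.07 (-0.19 to 0.33).

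Unsaturated chains need isomerases and a dienoyl-CoA reductase to rejoin the round, and 3 of these 5 members passed. The called share was 60.0%, against 15.4% of all genes and 28.2% of the brighter genes, but it rests on only 5 genes. Decr2, the peroxisomal dienoyl-CoA reductase, read 10.50, 10.10 and 10.24 in wild type, 10.83, 10.54 and 10.87 in mutants and 10.52, 10.28 and 10.34 in rescue livers. The mutants were the highest 3 of the 9. It rose by 0.47 ± 0.13 (adjusted p = 0.0239). Significance was lost without wild-type replicate 2 (0.38, adjusted p = 0.0913), wild-type replicate 3 (0.45, adjusted p = 0.0796), mutant replicate 1 (0.43, adjusted p = 0.0802) or mutant replicate 3 (0.41, adjusted p = 0.0848), after median centring (0.39, adjusted p = 0.0756) or with the span trend removed (0.38, adjusted p = 0.0766).

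Decr1, the mitochondrial counterpart of Decr2, went the other way. It read 11.24, 11.31 and 11.33 in wild type, 10.99, 10.91 and 11.00 in mutants and 11.00, 11.09 and 11.08 in rescue livers. Wild type lay above the other 2 groups without overlap. It fell by 0.33 ± 0.10 (adjusted p = 0.0325) in mutants. The call did not hold when any 1 of the 6 wild-type and mutant arrays was left out (values from -0.35 to -0.30, adjusted p from 0.0571 to 0.101), without replicate 2 of every group (-0.29, adjusted p = 0.143) or with quantile normalization repeated (-0.29, adjusted p = 0.0568).

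Ech1, a dienoyl-CoA isomerase with forms in both organelles, read 9.13, 9.19 and 9.08 in wild type, 9.57, 9.56 and 9.62 in mutants and 9.50, 9.06 and 9.32 in rescue livers. The mutants clustered tightly above all other livers. Rescue replicate 2 lay below all wild-type livers, and rescue replicates 1 and 3 lay above them. Ech1 rose by 0.45 ± 0.12 in mutants (adjusted p = 0.0175). The adjusted p exceeded the threshold without wild-type replicate 3 (0.42, adjusted p = 0.0677) or mutant replicate 3 (0.43, adjusted p = 0.0554), after median centring (0.37, adjusted p = 0.0563) or with the span trend removed (0.35, adjusted p = 0.0674).

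Eci1, the mitochondrial enoyl-CoA isomerase, differed by 0.26 (95% interval 0.03 to 0.49, adjusted p = 0.121), and passed with quantile normalization repeated (0.34, adjusted p = 0.0245). Eci2, an isomerase also found in peroxisomes, differed by -0.21 (-0.49 to 0.07). Within arrays, Eci1 minus Eci2 shifted by 0.47 in mutants and Decr2 minus Decr1 by 0.79, both without overlap and each with an exact permutation p of 0.1 (adjusted p = 0.171). The 4 pairs of genes set against each other within arrays were picked after their values were known.

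**Figure D2:**
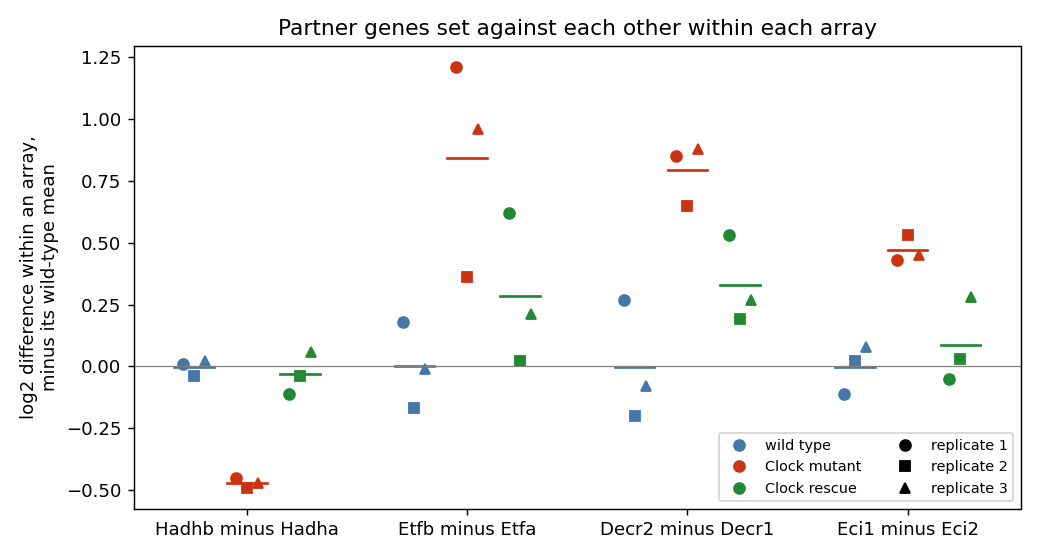
Difference in log2 level between the genes of a pair on the same array, minus its wild-type mean (y axis), for 4 pairs (x axis). Colours give the 3 groups, marker shapes the replicate numbers and short lines the group means; mutant points lie apart from wild type in each pair, and for Hadhb minus Hadha the mutant mean is -0.47 and the rescue mean -0.03.

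Among the 6 peroxisomal members, the thiolases Acaa1a and Acaa1b rose and the other 4 did not pass (33.3% called, against 15.4% of all and 28.2% of the brighter genes). Acaa1b, a thiolase of the peroxisomal round, read 8.56, 8.04 and 7.66 in wild type, 8.92, 8.73 and 8.76 in mutants and 8.77, 8.36 and 8.67 in rescue livers. Wild type was spread over nearly a unit of log2 and lay below all mutants. It rose by 0.72 ± 0.18 (adjusted p = 0.0154). This did not pass without wild-type replicate 3 (0.50, adjusted p = 0.0757), mutant replicate 1 (0.66, adjusted p = 0.058) or replicate 2 of every group (0.73, adjusted p = 0.0719).

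Acaa1a, its close paralogue, read 7.50, 7.43 and 7.02 in wild type, 8.01, 7.61 and 7.82 in mutants and 7.47, 7.41 and 7.51 in rescue livers. The mutants were the highest 3 and wild-type replicate 3 the lowest. It rose by 0.50 ± 0.14 (adjusted p = 0.0243). It no longer passed without wild-type replicate 3 (0.35, adjusted p = 0.116), mutant replicate 1 (0.40, adjusted p = 0.0995) or mutant replicate 3 (0.49, adjusted p = 0.0592), after median centring (0.42, adjusted p = 0.0555) or with the span trend removed (0.40, adjusted p = 0.0629). Because the 2 genes are near-identical in sequence, cross-hybridization between their probe sets cannot be told from expression here.

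The remaining peroxisomal members showed smaller differences. Ehhadh, the bifunctional enzyme for straight chains and a PPARA target, read 11.39, 10.74 and 10.65 in wild type, 10.73, 10.56 and 10.96 in mutants and 11.23, 11.27 and 11.13 in rescue livers. Wild-type replicate 1 lay above all mutants, the other 2 wild-type livers lay within their range, and the difference was -0.18 (95% interval -0.53 to 0.18). Hsd17b4, the bifunctional enzyme that also handles branched chains, differed by 0.11 (-0.10 to 0.32), Scp2, which carries sterols and contains a thiolase, by 0.12 (-0.11 to 0.35), and Pex11a, which drives peroxisome division, by -0.17 (-0.45 to 0.12).

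Bdh1, which converts acetoacetate to beta-hydroxybutyrate, was the only ketone body gene among the measured members and differed by 0.08 (95% interval -0.19 to 0.35). Vnn1, a pantetheinase that recycles building blocks of coenzyme A and a PPARA target, read 9.21, 9.24 and 9.13 in wild type, 8.78, 8.54 and 8.93 in mutants and 9.0, 9.03 and 9.23 in rescue livers. All mutants lay below both other groups. It fell by 0.44 ± 0.12 (adjusted p = 0.019). Significance was lost without wild-type replicate 1 (-0.44, adjusted p = 0.0545), wild-type replicate 2 (-0.42, adjusted p = 0.0571), mutant replicate 2 (-0.34, adjusted p = 0.0719) or replicate 2 of every group (-0.32, adjusted p = 0.145), or with quantile normalization repeated (-0.33, adjusted p = 0.0627).

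**Figure D3:**
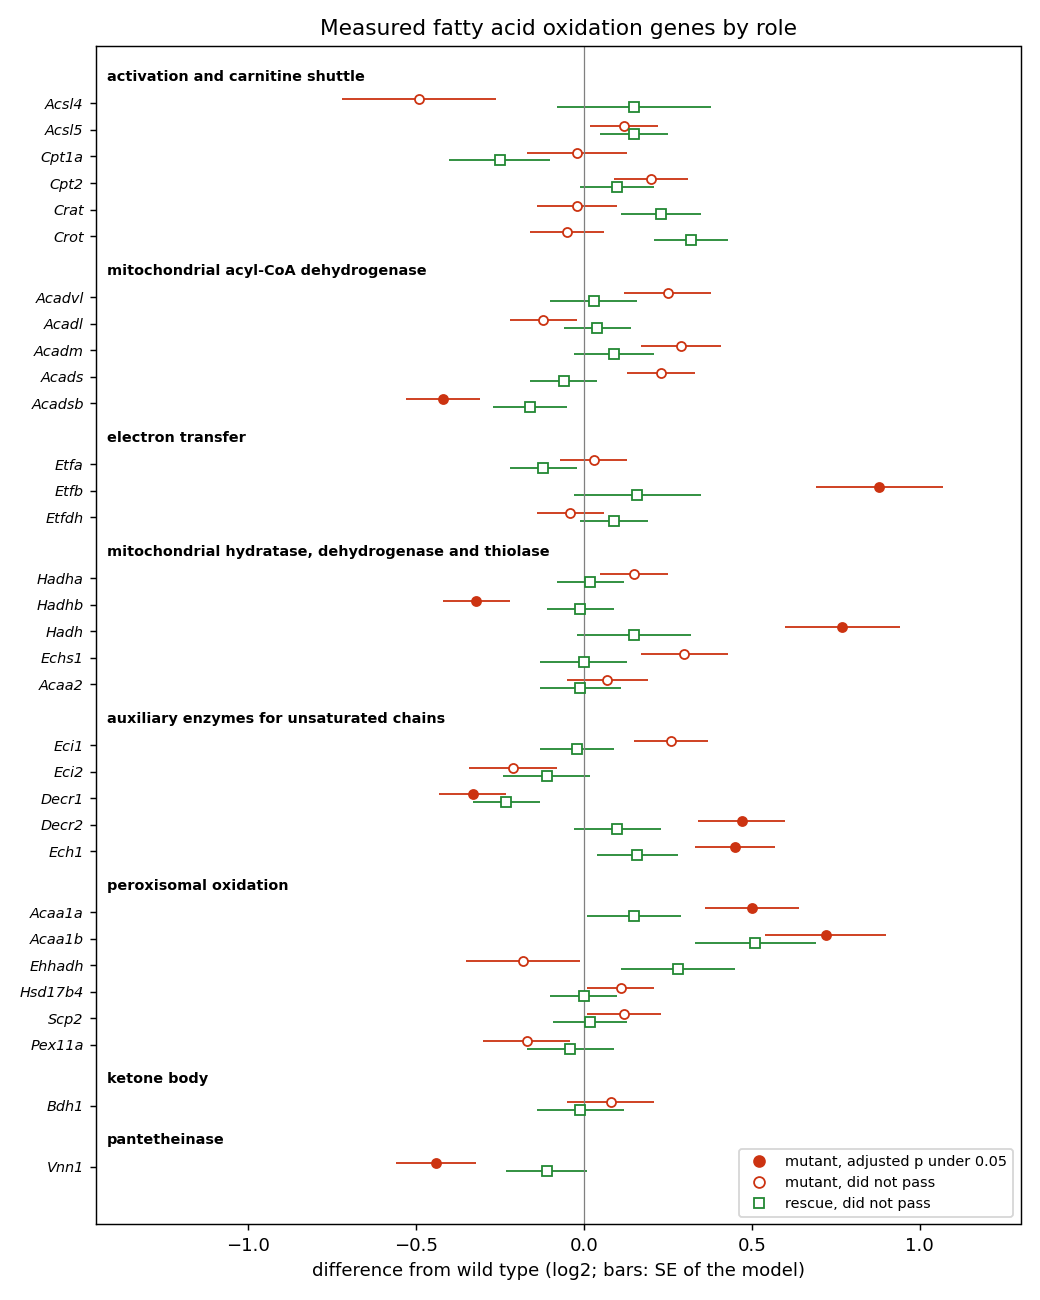
Difference from wild type on the log2 scale (x axis) for each of the 32 measured members, grouped by role, in mutant livers (circles, filled where adjusted p was under 0.05) and rescue livers (squares). Bars are the SE of the model; Etfb lies at 0.88 in mutants and 0.16 in rescue livers and Hadh at 0.77 and 0.15, while Cpt1a, Crat, Etfa and Etfdh lie near 0 in mutants.

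Rescue and mutant livers were compared next; this comparison shares the mutant arrays with the former one, so the 2 are not independent. Of the 32 members, 1 passed, against 3.81% of all genes. With the dimmest 40% of genes left out, 4 of 32 passed against 9.85%. The groups did not overlap for 17 members (53.1%), compared with 25.7% of all genes and 31.8% of the brighter genes. In mutant against wild type the same count was 19 (59.4%), compared with 35.7% and 45.2%. The median difference from mutants to rescue livers was -0.10 over members and -0.05 over all genes.

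Etfb was the member that passed, falling by 0.72 ± 0.19 (adjusted p = 0.0488). This call held in 7 of 19 alternatives. It did not hold without wild-type replicates 1, 2 or 3 (adjusted p from 0.052 to 0.0616), without mutant replicate 1 (-0.57, adjusted p = 0.154), mutant replicate 3 (-0.67, adjusted p = 0.118), rescue replicate 2 (-0.56, adjusted p = 0.152) or rescue replicate 3 (-0.68, adjusted p = 0.136), without replicate 2 of every group (-0.77, adjusted p = 0.0969), with the span trend removed (-0.66, adjusted p = 0.0741), with a trended prior (adjusted p = 0.0604), with the 6 arrays compared (adjusted p = 0.0666), or after median centring (-0.66, adjusted p = 0.0756). Hadh differed by -0.62 ± 0.17 (adjusted p = 0.0566), and passed in 5 of 19 alternatives. These were without rescue replicate 1 (-0.79, adjusted p = 0.0325), with the replicate block (adjusted p = 0.0306), with the dimmest genes left out (adjusted p = 0.0347), with quantile normalization repeated (-0.66, adjusted p = 0.0261) and with array weights (-0.56, adjusted p = 0.0394). For Hadh the difference was -0.37 (adjusted p = 0.142) without rescue replicate 2 and -0.40 (adjusted p = 0.198) without replicate 2 of every group. Both had their mutant mean as the highest of the 3 groups.

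Hadhb differed by 0.31 ± 0.10 (adjusted p = 0.0918) between mutants and rescue livers. It passed with the dimmest genes left out (adjusted p = 0.0466), with a trended prior (adjusted p = 0.0373) and with array weights (0.34, adjusted p = 0.0433). Of the other genes that moved in mutants, Vnn1 differed by 0.34 (adjusted p = 0.115), Acadsb by 0.26 (adjusted p = 0.191) and Decr1 by 0.10 (adjusted p = 0.595). Decr2 differed by -0.37 (adjusted p = 0.119), Acaa1a by -0.35 (adjusted p = 0.159), Ech1 by -0.29 (adjusted p = 0.168; -0.17 without rescue replicate 2) and Acaa1b by -0.20 (adjusted p = 0.546).

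Crot, Ehhadh and Acsl4 had their highest group mean in the rescue livers. So did Crat, Acadl, Etfdh and Acsl5, with smaller differences from the mutants (0.25, 0.16, 0.13 and 0.03). Crot read 11.59, 11.80 and 11.52 in wild type, 11.50, 11.55 and 11.70 in mutants and 11.91, 11.94 and 12.02 in rescue livers. The rescue values lay above all 6 others. Its difference from the mutants was 0.37 ± 0.11 (adjusted p = 0.07). It passed in 4 of 19 alternatives, among them median centring (0.43, adjusted p = 0.0339) and the trended prior (adjusted p = 0.0194). Ehhadh differed by 0.46 ± 0.17 (adjusted p = 0.133), with rescue livers above the mutants without overlap. Acsl4 differed by 0.64 ± 0.23 (adjusted p = 0.136), with overlap; without mutant replicate 1 the difference was 0.26 (adjusted p = 0.339), without replicate 2 of every group it was 0.99 (adjusted p = 0.12), and with array weights it passed (0.76, adjusted p = 0.0499).

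Some members not called in mutants against wild type differed by amounts like those above. Acads, whose mutant values were the highest, differed by -0.29 (95% interval -0.50 to -0.07), Echs1 by -0.30 (-0.58 to -0.01; -0.13 without rescue replicate 2) and Eci1 by -0.28 (-0.52 to -0.05) from mutants to rescue livers. Crat differed by 0.25 (0.00 to 0.50). These intervals are not adjusted for the number of genes, and none of these 4 differences passed the test.

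In rescue against wild-type livers, 0 of the 32 members passed in the limma fit, against 2.28% of all genes, and 3 had an unadjusted p under 0.05, against 14.2% of all genes. With the dimmest 40% of genes left out it was again 0 of 32, against 5.94%. The groups did not overlap for 3 members (9.38%), against 19.5% of all genes and 24.5% of the brighter ones. The smallest adjusted p, 0.17, was that of Crot, which differed by 0.32 (95% interval 0.09 to 0.55). Acaa1b differed by 0.51 (0.13 to 0.90, adjusted p = 0.184); it passed without wild-type replicate 1 (0.75, adjusted p = 0.0271) and was 0.30 (adjusted p = 0.527) without wild-type replicate 3. Decr1 differed by -0.23 (-0.43 to -0.03, adjusted p = 0.274), with every rescue value below every wild-type value.

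For the genes that moved most in mutants, the intervals of rescue against wild type remained wide. Etfb differed by 0.16 (95% interval -0.24 to 0.56) and Hadh by 0.15 (-0.22 to 0.52), so a remaining rise of that upper size is within the error of each. Hadhb differed by -0.01 (-0.22 to 0.20). The lowest difference of any member was that of Cpt1a, -0.25 (-0.56 to 0.06), which was -0.07 without rescue replicate 2 and -0.42 without rescue replicate 3.

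The members also differed in the length of the genome they cover. The 6 that rose span a median of 9.19 kb, from 6.9 kb in Ech1 to 38.7 kb in Hadh. The 4 that fell span a median of 28.7 kb, from 10.7 kb in Vnn1 to 35.6 kb in Acadsb. The 22 that did not pass span a median of 29.1 kb, from 5.25 kb in Acadvl to 101 kb in Scp2. Over the 32 members, Spearman's rho between span and difference was -0.40 in mutant against wild type, 0.32 in rescue against mutant and -0.22 in rescue against wild type; over 19855 genes with a span it was -0.24, 0.22 and -0.11. The points share their arrays, so these are descriptions. Hadh, with the longest span among the risers, rose by 0.70 to 0.88 over 19 alternatives. Once the span trend was removed, Hadh (0.78), Etfb (0.81) and Acaa1b (0.62) still passed, and Decr2 (0.38, adjusted p = 0.0766), Ech1 (0.35, adjusted p = 0.0674) and Acaa1a (0.40, adjusted p = 0.0629) did not; these last 3 did not pass after median centring either.

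**Figure D4:**
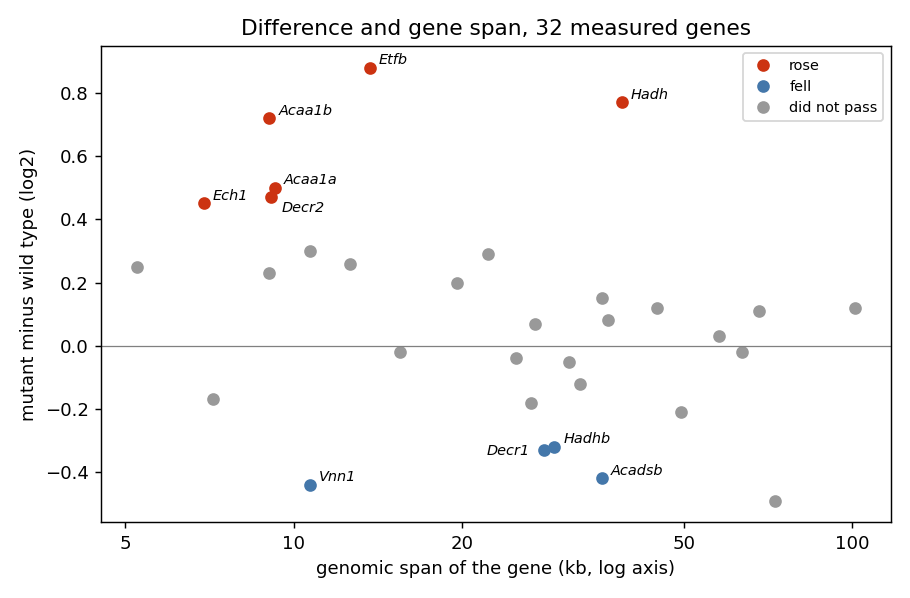
Genomic span of each gene in kb on a log axis (x axis) against the log2 difference of mutant minus wild type (y axis) for the 32 measured members. Red points rose, blue points fell and grey points did not pass; 5 of the 6 risers lie at 6.9 to 13.7 kb, and Hadh lies at 38.7 kb.

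Other genes of the pathway, taken from lists that share no member with the 34, were counted in the same fit. Their called shares stand against the 15.4% of all genes and 28.2% of the brighter genes given above. In activation and shuttling, 3 of 21 rose and 1 fell in mutants (19.0% called); Acss2, the cytosolic acetyl-CoA synthetase, rose by 0.76 ± 0.15 (adjusted p = 0.0038). In the list of mitochondrial dehydrogenases and helpers, which also holds the peroxisomal Nudt19, 4 of 20 rose and 1 fell (25.0% called). That is below the share of the brighter genes. Echdc2, an enoyl-CoA hydratase domain protein, rose by 0.84 ± 0.13 (adjusted p = 6.55e-04), Echdc3 rose by 0.46 (adjusted p = 0.00501), and Nudt19, a peroxisomal hydrolase of CoA, fell by 0.59 ± 0.12 (adjusted p = 0.00374).

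In the list of other peroxisomal oxidation and transport genes, 3 of 22 rose and 3 fell (27.3% called), near the 28.2% of the brighter genes. Acox2, the oxidase for branched chains and bile acid precursors, rose by 0.53 ± 0.10 (adjusted p = 0.00225), and Hacl1, the lyase of alpha-oxidation, rose by 0.83 ± 0.15 (adjusted p = 0.00228). Far1 and Agps, enzymes of ether lipid synthesis, fell by 0.69 ± 0.11 (adjusted p = 8.95e-04) and 0.51 (adjusted p = 0.00569). Acot4, a peroxisomal thioesterase, fell by 0.79 ± 0.14 (adjusted p = 0.00231). In peroxisome assembly, 4 of 12 rose and 1 fell (41.7% called, against 15.4% of all and 28.2% of the brighter genes); Pex16 rose by 0.95 ± 0.14 (adjusted p = 6.92e-04) and Pex14 by 0.55 (adjusted p = 0.00878), and Pex3, which works with Pex16 in membrane protein insertion, fell by 0.52 (adjusted p = 0.00555). Pex3 and Pex16 thus moved in opposite directions.

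Ketone body genes outside the members numbered 8, of which 1 rose and 2 fell (37.5% called, against 15.4% of all and 28.2% of the brighter genes). Slc16a1, a carrier of lactate and ketone bodies, rose by 0.75 ± 0.14 (adjusted p = 0.00231), and Oxct1, the enzyme of ketone body use, which hepatocytes express little, fell by 0.56 ± 0.10 (adjusted p = 0.00202). In microsomal omega-oxidation, 1 of 12 rose and 1 fell (16.7% called), with Cyp4a12a lower by 0.56 ± 0.11 (adjusted p = 0.00327).

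Among regulators of the pathway, 1 of 27 rose and 8 fell. The share that fell was 29.6%, against 9.02% of all genes and 16.3% of the brighter ones, while over the whole list 13 differences were above 0 and 14 below, with a median of -0.07. Lpin1, a phosphatidate phosphatase and coactivator of PPARA, fell by 1.09 ± 0.13 (adjusted p = 1.19e-04). Nr1d2, a clock repressor, fell by 1.18 ± 0.17 (adjusted p = 4.08e-04). Med1, a coactivator subunit, fell by 0.53 ± 0.10 (adjusted p = 0.00338), and Prkaa1, a catalytic subunit of AMP-activated kinase, by 0.46 (adjusted p = 0.00691). Ppara itself read 9.86, 9.82 and 9.62 in wild type, 9.55, 9.54 and 9.53 in mutants and 9.40, 9.34 and 9.65 in rescue livers. Mutant values lay below those of wild type, but its difference of -0.22 ± 0.11 did not pass (adjusted p = 0.186).

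Of the PPARA targets outside oxidation, 5 of 30 rose and 6 fell (36.7% called, against 15.4% of all and 28.2% of the brighter genes). The acyl-CoA thioesterases Acot1 and Acot3 fell by 0.84 ± 0.12 (adjusted p = 5.44e-04) and 1.40 ± 0.21 (adjusted p = 5.86e-04), and Plin2, a lipid droplet coat protein, rose by 0.74 ± 0.12 (adjusted p = 8.98e-04). Apart from Ppara, the genes named in these lists are those that passed in 19 of 19 alternatives for mutant against wild type. With marker genes included, 30 of the 47 genes selected from the lists and called there passed in every alternative testing them (18 for Cd3g). For rescue against mutant the number was 1 of 16, Vsig4, and for rescue against wild type 4 of 15: Lpin1 (-1.26), Plin2 (0.78), Vsig4 (-1.04) and Cd163 (-0.89).

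Promoter windows of 300 bases, 250 before and 50 after each start, were found in the RefSeq table for 29 of the 34 listed members, 31 windows in all. Both strands were searched. The E-box CACGTG, bound by CLOCK with BMAL1, was in 0 of 31 windows and in 7.15% of all 32851 windows. The D-box TTATGTAA was in 0 and in 0.938%. The direct repeat of AGGTCA with a spacer of 1 base, the kind bound by PPARA with its partner, was in 0 and in 0.0396%. A looser form that allows any base at the fourth position of each AGGTCA, and so includes the strict one, was in 0 and in 0.381%. AGGTCA alone, which the repeat contains, was in 5 windows (16.1%), those of Acadm, Scp2, Echs1, Acadvl and Cpt1a, against 16.3% of all. No match says only that these letters are not in these windows. GGGCGG, the GC box marked in the sequences above, was in 24 of 31 windows (77.4%) against 35.7% of all, and CCAAT in 13 (41.9%) against 37.4%; these last 2 motifs were added after the first were counted. The member windows had a median GC content of 59.6%, against 52.4% over all windows.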

How the data were processed

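Liver RNA was hybridized to Affymetrix arrays, 1 per mouse. The deposited values are log2 expression levels per probe set, made by the authors with RMA in Affymetrix Expression Console, per the submitters' processing notes; the versions are not stated there. RMA corrects background, equalizes the distribution of probe values across arrays and summarises probes; a shift shared by most genes can be lost in this way, and differences of dim genes shrink.

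Of 35556 probe sets, 21789 carried 1 symbol, 1621 several and 12146 none in the platform annotation; the brightest single-symbol probe set per gene left 19938 genes. Entrez identifiers of 21698 probe sets matched the RefSeq gene table (GRCm38.p6), 91 did not. The table gave names and gene span.

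limma 3.58.1 (R 4.3.3, statmod 1.5.0) was fitted on all 9 arrays with group as the term, 6 residual and 8.475 prior degrees of freedom, and 3 contrasts, each adjusted by Benjamini-Hochberg over all genes; adjusted p under 0.05 was called. The 95% intervals used the moderated SE. The fit was tested on simulated data. Within-array differences of gene pairs used exact permutation tests (scipy 1.17.1).

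The members and lists were chosen with earlier results of these data known. By rule, every measured member is named, members called in any comparison are given on all arrays, and up to 6 called genes of each other list and 2 of each marker list were considered by smallest p. The 19 alternatives were a block on the replicate number, a filter removing the dimmest 40% of genes, repeated quantile normalization, median centring, a trended and robust prior, array weights, the mean over probe sets, removal of the gene span trend, the 6 arrays compared, each array left out, and, chosen after seeing the data, replicate 2 of every group left out.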

Additional observations from a re-analysis of the deposited data

How the results depend on the processing

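No call turned its direction in any of the 19 alternatives. Over 608 values of members and settings per comparison, 45 lost and 6 gained a call in mutant against wild type, 12 and 14 in rescue against mutant, and 0 and 1 in rescue against wild type. Uncalled differences changed sign 18, 6 and 51 times.

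In mutant against wild type, 10 members passed as deposited, 3 to 10 with 1 array left out, and 5 without replicate 2 of every group. The lowest counts were 3 without wild-type replicate 3 and 4 without mutant replicate 1, where 1695 and 2035 of all genes passed in place of 3068. Leaving out any other wild-type or mutant array gave 5 to 9 members and 2182 to 2469 of all genes. In rescue against mutant, 1 member passed as deposited, 0 to 2 with 1 array left out, 2 with quantile normalization repeated, 4 without the dimmest 40% of genes, 2 with a trended and robust prior, 6 with array weights, and 0 with the gene span trend removed, with the 6 arrays compared or without replicate 2 of every group. Median centring gave 1, Crot, in place of Etfb. All genes called there numbered 759 as deposited, 1178 without the dimmest genes, 1210 with the trended prior, 1334 with array weights, 200 to 692 with 1 array left out and 64 without replicate 2 of every group. In rescue against wild type, 0 members passed as deposited and 0 to 1 with 1 array left out; all genes called numbered 454, against 711 without the dimmest genes, 704 with the trended prior, 233 to 501 with 1 array left out and 274 without replicate 2 of every group. Some settings used smaller numbers of arrays or genes, and the cause of these changes was not tested.

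Between groups, animals sharing a replicate number gave correlations of deviations from -0.11 to 0.19, and animals with different numbers from -0.26 to 0.18. Those sharing a number were all above 0 for replicates 1 and 2 (0.07 to 0.19), but not for replicate 3 (-0.11 to 0.05). The labels do not explain the numbers, and the main fit did not take them as pairs. With the replicate block, 10, 2 and 0 members passed in the 3 comparisons. Of all genes 3368, 931 and 507 then passed, against 3068, 759 and 454 without the block. In the second comparison the members were Etfb (adjusted p = 0.0111) and Hadh (adjusted p = 0.0306).

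The 3 arrays a group limit the precision to that of the printed intervals, and array values carry no read depth.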

Other observations

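The livers numbered replicate 2 were the lowest of their group in all 3 groups for 8 of the 32 members, Cpt1a, Acadvl, Acadl, Acadm, Hadhb, Acaa2, Decr2 and Pex11a; 6.05% of all genes had this pattern. Replicate 1 was lowest throughout for 2 members, Acadsb and Scp2 (5.6% of all genes), and replicate 3 for 1, Acads (2.74%). The labels do not say what the numbers share. The mean of the members on an array, as the deviation from their mean over all arrays, was 0.02, -0.07 and -0.10 in wild type, 0.06, -0.01 and 0.10 in mutants and 0.08, -0.13 and 0.05 in rescue livers. Rescue replicate 2 was the lowest of these 9, and limma's array weights were lowest for mutant replicate 2, 0.539, and rescue replicate 2, 0.675. The pattern was picked after the data were seen.

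Cd36, the fatty acid translocase, was lower in rescue than in wild-type livers by 0.81 (limma adjusted p = 0.0148), while mutants differed from wild type by -0.33 (adjusted p = 0.182). The call did not hold without wild-type replicate 1 (-0.63, adjusted p = 0.0615), wild-type replicate 3 (-0.80, adjusted p = 0.0593) or rescue replicate 1 (-0.69, adjusted p = 0.0669). Pdk4, the kinase that restrains pyruvate oxidation, was higher in mutants by 0.53 (adjusted p = 0.00907) and lower in rescue livers than in mutants by 0.75 (adjusted p = 0.00719); both calls held in 18 of 19 alternatives and were lost without replicate 2 of every group (0.47, adjusted p = 0.0762, and -0.74, adjusted p = 0.0841).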
